A study of Mus musculus with 9 samples.

Results

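The WNT genes described here are 32 of the 23018 genes in a count table of mouse lymphatic endothelial cells, chosen by symbol: 12 WNT ligands, 10 frizzled receptors, 4 secreted frizzled-related proteins, 2 Dickkopf proteins, 2 naked cuticle proteins and 2 axins. The cells were sorted as CD45-CD31+PDPN+, negative for the leukocyte antigen CD45 and positive for the endothelial antigen CD31 and for podoplanin, a surface protein of lymphatic endothelium. All groups were wild type C57BL/6 males, 10 weeks old and without treatment, and each tissue (meninges, diaphragm or skin) gave 3 libraries. Whether a replicate was 1 animal or a pool is not in the labels. The p-values therefore measure only the spread between these libraries, which may be technical. Levels are given as CPM, the counts of a gene scaled to a common library size, and n is 3 for every tissue mean with its SD.

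WNT ligands are secreted, lipid-modified proteins that bind frizzled receptors on the cell surface. With the co-receptors Lrp5 and Lrp6, a bound frizzled halts the breakdown of beta-catenin, which then works with TCF/LEF factors in the nucleus; other ligand and receptor pairs act without beta-catenin, on cell shape and polarity. Secreted frizzled-related proteins and Dickkopf proteins act outside the cell, whereas axins and naked cuticle proteins act inside it. In mice, beta-catenin signalling takes part in the formation of lymphatic valves.

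The libraries held 26075366 to 34592850 counts, and all 8 lymphatic endothelial marker genes had counts in every tissue. Those 8 markers summed to 15133, 6345 and 10958 CPM in Meninges replicates 1, 2 and 3, against 13809 to 19732 CPM in the diaphragm and 19682 to 20454 CPM in the skin. Marker sums of other cells also differed between tissues. The 10 fibroblast markers summed to 1539, 8717 and 8513 CPM in Meninges replicates 1, 2 and 3, against 737 to 1439 CPM in the diaphragm and 113 to 1131 CPM in the skin. The 8 meningeal fibroblast markers summed to 193, 947 and 706 CPM in the meninges, against 26.7 to 77.2 CPM in the diaphragm and 0 to 25.7 CPM in the skin, with 6 of the 8 at 0 in each of the other 2 tissues. The 6 bone and cartilage markers summed to 184, 992 and 674 CPM in the meninges, against 2.21 to 3.65 CPM in the diaphragm and 0.271 to 37.4 CPM in the skin.

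Of the 32 genes, 24 passed the filter on low counts and were tested. The other 8, Wnt5b, Wnt7a, Wnt7b, Wnt8b, Wnt9b, Wnt10b, Wnt11 and Sfrp5, did not exceed 30.9 CPM in any library. At an adjusted p under 0.05 in edgeR's quasi-likelihood test, Sfrp4 alone was called between meninges and diaphragm, and it was higher in the meninges. Of all 14831 genes tested in that comparison, 0.344% were called and 0.169% were called higher. Sfrp4, Fzd7 and Nkd2 were called between meninges and skin, all higher in the meninges, where 1.32% of all genes were called and 0.748% were called higher. None was called lower in the meninges in either comparison, where 0.175% of all genes were called lower against the diaphragm and 0.573% against the skin. Sfrp4 and Fzd2 passed the filter through the meningeal libraries alone, so they could only come out higher there. Nkd2 and Sfrp2 had no skin counts, so the same held for them against the skin. No WNT gene was called between diaphragm and skin by edgeR, where 0.0405% of all genes were called, 0.0337% higher and 0.00674% lower. The edgeR unadjusted p was under 0.05 for 5 of the 24 for meninges against diaphragm, 9 for meninges against skin and 5 for diaphragm against skin. Of all 14831 genes, 1493, 2052 and 1749 had such a p in those comparisons. DESeq2 called 4 WNT genes between diaphragm and skin. Calls given below without the filter or by DESeq2 come from settings that called many more genes of every kind. Without the filter 298, 610 and 305 genes were called in the 3 comparisons, taken in the order above. By DESeq2 these were 631, 1112 and 815 genes, against 51, 196 and 6 in the fit of all libraries. As a count without a test, libraries did not overlap for 3 WNT genes that were higher in the meninges than in the diaphragm (10.4% of all genes) and 1 that was lower (6.70%). Against the skin these were 6 genes higher in the meninges (12.9%) and 1 lower (7.34%), and for diaphragm against skin 2 genes higher (7.54%) and 1 lower (5.95%). As a description, the median log2 difference over the 24 tested genes was 0.44 for meninges minus diaphragm, 1.49 for meninges minus skin and 1.35 for diaphragm minus skin, against 0.05, 0.08 and 0.01 over all genes tested. The difference was above 0 for 16, 15 and 16 of the 24, against 7659, 7738 and 7456 of all 14831 genes.

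Frizzleds are the receptors of the pathway, and 4 of the 10 made up most of the frizzled transcripts. The regions upstream of 3 of them are shown because Fzd4 had similar means in every tissue, whereas all skin libraries were below all meningeal libraries in Fzd7 and Fzd1. Each is the 250 bases before the annotated start, 5′ to 3′, from RefSeq on build GRCm38.p6: Fzd4 at chr7:89404116-89404365 on the plus strand, Fzd7 at chr1:59481897-59482146 on the plus strand and Fzd1 at chr5:4758217-4758466 on the minus strand. Capitals mark matches on either strand to the TCF/LEF core CTTTGA or to the GC box GGGCGG, and overlapping matches run together.
Fzd4: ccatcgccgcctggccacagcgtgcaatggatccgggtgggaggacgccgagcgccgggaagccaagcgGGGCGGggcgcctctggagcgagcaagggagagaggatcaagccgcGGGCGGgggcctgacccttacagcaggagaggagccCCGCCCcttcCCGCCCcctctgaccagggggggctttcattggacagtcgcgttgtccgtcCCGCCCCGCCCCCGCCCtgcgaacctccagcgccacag
Fzd7: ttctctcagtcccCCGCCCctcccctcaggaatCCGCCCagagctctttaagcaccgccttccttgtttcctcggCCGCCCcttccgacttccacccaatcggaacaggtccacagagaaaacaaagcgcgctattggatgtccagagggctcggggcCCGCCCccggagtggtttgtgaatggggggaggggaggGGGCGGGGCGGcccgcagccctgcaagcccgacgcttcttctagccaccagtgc
Fzd1: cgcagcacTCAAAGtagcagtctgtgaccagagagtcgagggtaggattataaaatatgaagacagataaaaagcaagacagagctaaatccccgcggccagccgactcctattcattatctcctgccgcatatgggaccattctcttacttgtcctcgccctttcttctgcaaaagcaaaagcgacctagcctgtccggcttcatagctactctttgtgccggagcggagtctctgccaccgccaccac
The Fzd4 window held 7 GC boxes, the Fzd7 window 6 and the Fzd1 window 0. The Fzd1 window held 1 TCF/LEF core and the other 2 windows held 0. RefSeq promoters were matched for 22 of the 32 genes, and 20 of them had 1 listed start. Of the 22, 3 held the TCF/LEF core and 16 held the GC box at any listed start. Among 32851 mouse promoter windows of the same length, counted singly, 13.8% and 32.7% did, so the units differ. These matches describe the letters only.

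Fzd4, the receptor for norrin as well as for WNTs and a regulator of retinal vessels, was the frizzled with the most even level across tissues. It had 260, 291 and 180 CPM in the meninges, 182, 223 and 357 CPM in the diaphragm and 235, 325 and 178 CPM in the skin. The tissues overlapped fully. The 95% interval of the log2 difference ran from -0.89 to 0.77 for meninges minus diaphragm, from -0.84 to 0.82 for meninges minus skin and from -0.78 to 0.88 for diaphragm minus skin, and differences within those bounds were not resolved.

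Fzd7, a receptor of the Fzd1, Fzd2 and Fzd7 subgroup with roles in stem and progenitor cells, had 83.9, 248 and 169 CPM in the meninges. It had 440, 49.5 and 6.30 CPM in the diaphragm and 0, 1.46 and 0.640 CPM in the skin. All 3 meningeal and all 3 diaphragm libraries lay above every skin library, and the diaphragm libraries spread widely. Fzd7 was higher in the meninges than in the skin by 7.89 ± 1.61 on the log2 scale (SE; edgeR adjusted p = 0.0282). That call was lost without Meninges replicate 2 (adjusted p = 0.0601), Meninges replicate 3 (0.0545) or Skin replicate 3 (0.109). In bulk libraries such as these, fewer cells of a type and less RNA per cell cannot be told apart. Diaphragm minus skin came to 7.88 ± 1.60 (SE, edgeR adjusted p = 0.0936), and it was not called in the fit of all libraries. The call was made without Diaphragm replicate 3 (adjusted p = 0.0434), without the filter on low counts (9.6e-09) and by DESeq2 (8.3e-05). The last 2 settings called 305 and 815 genes in that comparison, against 6 in the fit of all libraries. Without Diaphragm replicate 1 the same difference was 5.31. Diaphragm replicate 1, with the highest Fzd7, also had 1188 CPM over 5 mesothelial markers, against 41.0 and 79.5 CPM in Diaphragm replicates 2 and 3; the part of those cells in the result was not tested.

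Fzd1, a close relative of Fzd7, had 30.8, 273 and 166 CPM in the meninges, 32.2, 185 and 1.61 CPM in the diaphragm and 0.929, 7.63 and 5.44 CPM in the skin. Every meningeal library was above every skin library, and the diaphragm overlapped both. The log2 difference of meninges minus skin was 5.07 ± 1.39 (SE; edgeR adjusted p = 0.106), and it was not called in the fit of all libraries. It was called without Diaphragm replicate 3 (adjusted p = 0.0275), with only the 2 tissues compared (0.0492), without the filter on low counts (4.5e-05) and by DESeq2 (0.00019). Fzd2, the remaining relative, had 5.20, 9.12 and 24.8 CPM in the meninges, against 0, 0 and 0.0358 CPM in the diaphragm and 0, 0 and 0.0457 CPM in the skin. Its 1397 meningeal counts stood against 1 count in each of the other tissues. The log2 ratio was 10.13 with a counting interval of 7.65 to 15.43 to the diaphragm and 9.96 with an interval of 7.48 to 15.26 to the skin, and it was not called (edgeR adjusted p = 0.256 and 0.152); DESeq2 called both (0.00043 and 0.00035). For each gene of the Fzd1, Fzd2 and Fzd7 subgroup, set together after its values were seen, every meningeal library was above every skin library. The same held for 12.9% of all genes tested, and no result for the subgroup can be drawn from genes chosen that way.

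Fzd6, a receptor best known for planar cell polarity and hair patterning, had its lowest values in the meninges. It had 44.0, 33.8 and 32.6 CPM in the meninges, against 233, 322 and 113 CPM in the diaphragm and 74.5, 178 and 78.1 CPM in the skin. Every meningeal library was below every library of the other 2 tissues. The log2 difference of meninges minus diaphragm was -2.59 ± 0.53 (SE; edgeR adjusted p = 0.0676) and that of meninges minus skin was -1.58 ± 0.51 (edgeR adjusted p = 0.189), so neither was called. The first was called without Skin replicate 1 (adjusted p = 0.0425) or Skin replicate 2 (0.0447), with only the 2 tissues compared (0.0440), without the filter (0.0036) and by DESeq2 (0.00023).

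Fzd5, a receptor with roles in retinal and yolk sac vessels, had 22.8, 23.2 and 69.0 CPM in the meninges, 107, 1.40 and 17.7 CPM in the diaphragm and 0.348, 6.58 and 44.9 CPM in the skin. The tissues overlapped. Fzd9 was detected mainly in the skin, at 0, 40.1 and 15.6 CPM, against 0, 0 and 0.582 CPM in the meninges and 0, 0.417 and 0 CPM in the diaphragm. Skin replicate 1 was at 0, so the tissues overlapped and the difference was not called (edgeR adjusted p = 0.396 for meninges minus skin and 0.425 for diaphragm minus skin). Fzd8 had 0.125, 13.1 and 11.8 CPM in the meninges, 0.700, 3.79 and 1.93 CPM in the diaphragm and 0, 0.284 and 0 CPM in the skin. Its diaphragm libraries were all above its skin libraries, without a call (edgeR adjusted p = 0.528). For meninges minus skin, where the libraries overlapped, edgeR did not call Fzd8 (adjusted p = 0.319) and DESeq2 did. Fzd3 and Fzd10 did not exceed 20.5 CPM in any library.

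**Figure D1:**
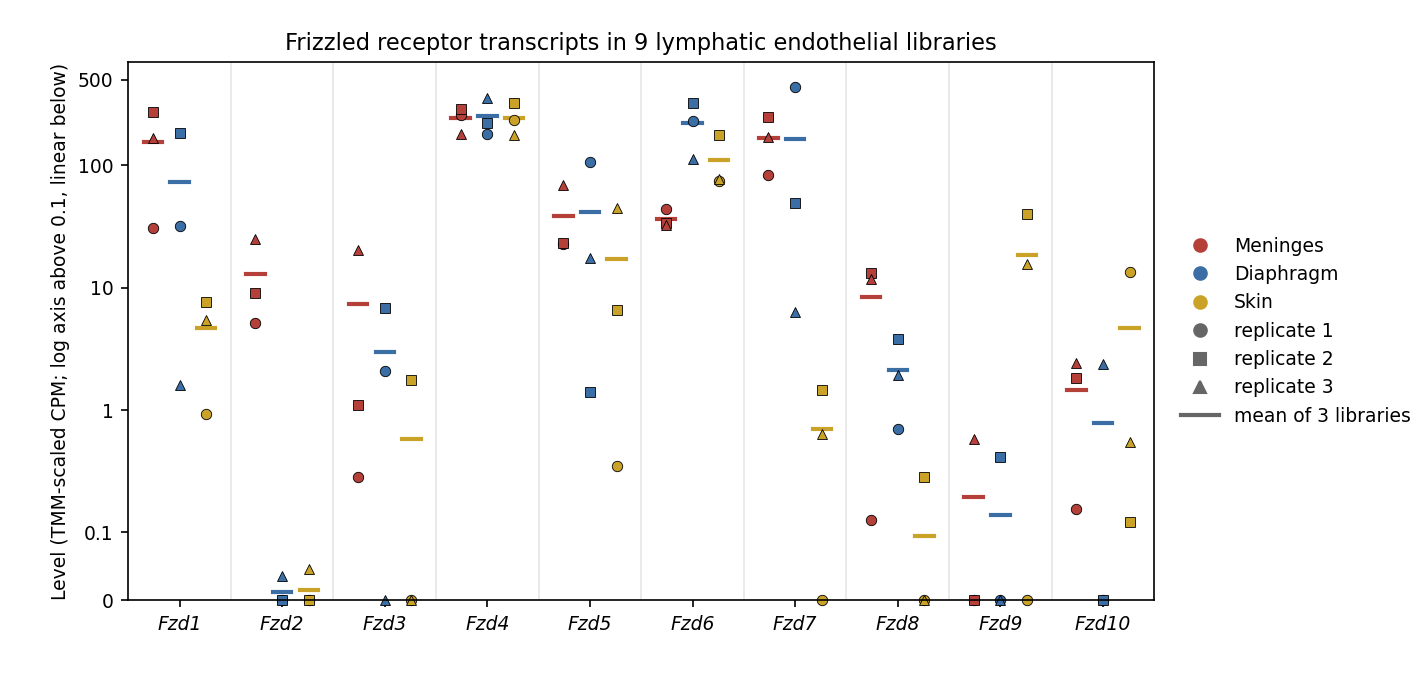
Level of the 10 frizzled receptors in each library (CPM, logarithmic above 0.1 and linear below); each point is a library, colour marks the tissue, shape the replicate and the bar the mean of 3 libraries. Fzd4 sits at 178 to 357 CPM throughout and Fzd7 and Fzd1 are low in the skin. Fzd2 is low in both the diaphragm and the skin, and Fzd6 is lowest in the meninges.

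Per kilobase of exon, so that genes could be compared, the 10 frizzleds summed to 78.5, 179 and 132 CPM per kb in the meninges, 196, 157 and 81.9 CPM per kb in the diaphragm and 54.9, 106 and 57.5 CPM per kb in the skin. Fzd4 made up 49.3%, 24.2% and 20.3% of that sum in the meninges, 13.8%, 21.2% and 64.9% in the diaphragm and 63.7%, 45.5% and 45.9% in the skin. Fzd7 and Fzd1 together with Fzd4 formed the bulk of the meningeal sum. Fzd7 made up 23.6%, 30.6% and 28.4% and Fzd1 made up 9.36%, 36.4% and 30.0% there. In the skin Fzd7 was at most 0.304% and Fzd1 at most 2.25%, with Fzd6 at 28.2%, 34.9% and 28.2%.

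**Figure D2:**
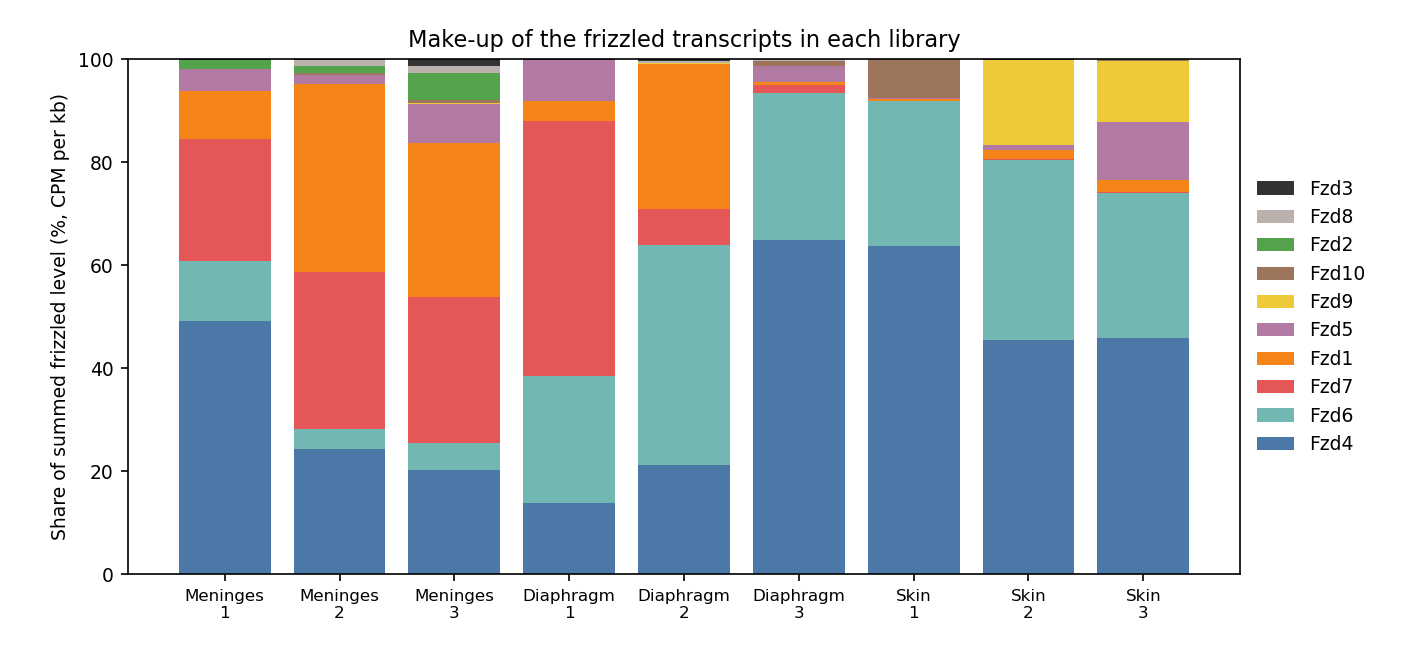
Share of each frizzled gene in the summed frizzled level of each library (%, CPM per kb), stacked to 100, with libraries in the order meninges, diaphragm and skin. Fzd7 fills 23.6% to 30.6% of the meningeal bars and at most 0.304% of the skin bars, where Fzd4 and Fzd6 fill most.

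The 12 ligands were low, and 5 passed the filter. No ligand was called in any comparison. Wnt5a, a ligand that acts largely without beta-catenin, had 2.66, 11.1 and 16.4 CPM in the meninges, 13.7, 10.1 and 3.69 CPM in the diaphragm and 24.8, 71.1 and 0 CPM in the skin. Wnt9a, known for its role in joint formation, had 7.14, 1.62 and 46.6 CPM in the meninges, 37.4, 1.44 and 3.37 CPM in the diaphragm and 8.05, 7.79 and 0 CPM in the skin. Wnt2b, a beta-catenin ligand, had 13.6, 14.2 and 0.423 CPM in the meninges, 50.6, 6.70 and 0.107 CPM in the diaphragm and 0.542, 3.04 and 8.82 CPM in the skin. All 3 ligands overlapped between every pair of tissues, and the highest Wnt2b and the second highest Wnt9a values were in Diaphragm replicate 1, the library rich in mesothelial markers. The highest Wnt5a value was in Skin replicate 2, which also had 132.7 CPM over 3 keratinocyte markers, against 0 in both other skin libraries; the part of those cells was not tested. Wnt5b had 30.9 CPM in Meninges replicate 3 and 9.37 CPM in Skin replicate 3, and at most 0.0312 CPM elsewhere. Wnt10b reached 15.2 CPM in Meninges replicate 1 and Wnt2 reached 11.7 CPM there, with at most 1.14 CPM in any other library for each.

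**Figure D3:**
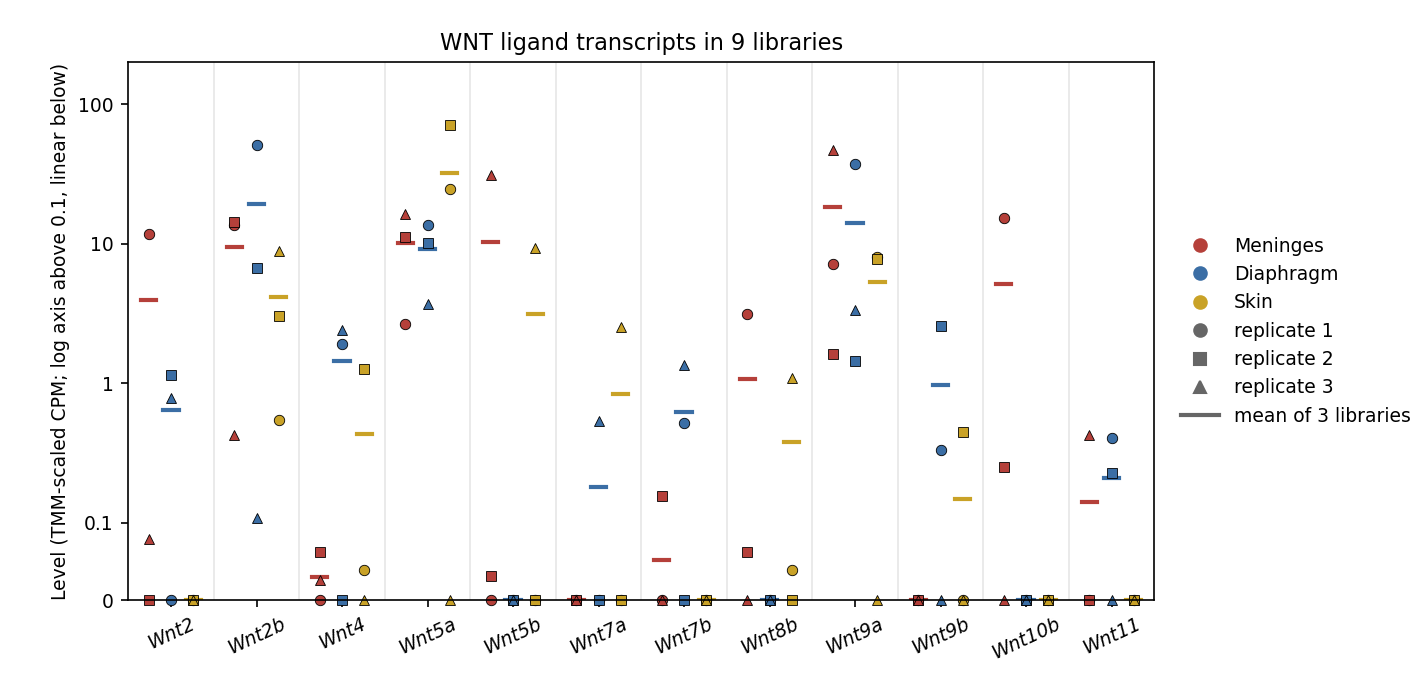
Level of the 12 WNT ligands in each library (CPM, logarithmic above 0.1 and linear below), with tissues, replicates and means drawn as colours, shapes and bars. Wnt2b, Wnt5a and Wnt9a overlap between tissues, and several ligands have a level above 10 CPM in a single library.

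Sfrp4, a secreted frizzled-related protein that binds WNTs and shapes cortical bone, had the smallest adjusted p of the 24 tested genes in both meningeal comparisons. It had 53.4, 132 and 113 CPM in the meninges, 0 in all 3 diaphragm libraries and 0.0387, 0 and 0 CPM in the skin. Its 10197 meningeal counts compared with 0 diaphragm counts and 1 skin count, so the groups did not overlap. Having passed the filter through the meningeal libraries alone, Sfrp4 could only come out higher there. With 3 counts over the diaphragm libraries taken as the floor, Sfrp4 was at least 11.41 higher in the meninges on the log2 scale (edgeR adjusted p = 0.00367). Against the skin the log2 ratio was 12.82, with a counting interval of 10.35 to 18.13 (edgeR adjusted p = 0.00232). Both calls were kept with each of the 9 libraries left out in turn. When Meninges replicate 1 stood alone for the meninges they were not made (edgeR adjusted p = 0.355 and 0.308), although that library alone held 53.4 CPM. The bone and fibroblast marker sums given above also had their highest values in the meninges. So did the sum of 8 mural cell markers, at 527, 1096 and 1331 CPM in the meninges. That sum was 298 to 499 CPM in the diaphragm and 28.8 to 280 CPM in the skin. The part of all these cells in the Sfrp4 result was not tested.

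Sfrp2, a relative expressed by many mesenchymal cells, had 0.595, 68.5 and 56.2 CPM in the meninges, 0, 32.1 and 0.967 CPM in the diaphragm and 0 in all 3 skin libraries. All meningeal libraries were above the skin, but Meninges replicate 1 only just. With the same floor over the skin libraries it was at least 10.01 higher in the meninges on the log2 scale, and it was not called in the fit of all libraries (edgeR adjusted p = 0.107). It was called without Diaphragm replicate 1 (adjusted p = 0.0383), without the filter on low counts (0.00028) and by DESeq2 (0.0016). Sfrp1, which also binds WNTs, had 20.5, 1.62 and 22.1 CPM in the meninges, 22.8, 0 and 18.3 CPM in the diaphragm and 0, 18.3 and 26.8 CPM in the skin, with overlap throughout. Sfrp5 did not exceed 0.658 CPM.

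Dkk3, a divergent Dickkopf protein that does not act on Lrp6 as its relatives do, had 16.0, 165 and 166 CPM in the meninges, 0.295, 3.60 and 35.2 CPM in the diaphragm and 44.9, 108 and 334 CPM in the skin. Each diaphragm library was below each skin library, while meninges overlapped both. The log2 difference was -3.64 ± 1.33 for diaphragm minus skin (SE; edgeR adjusted p = 0.357) and 3.15 ± 1.30 for meninges minus diaphragm (edgeR adjusted p = 0.420), and neither was called in the fit of all libraries. Without the filter both were called (adjusted p = 0.0040 for diaphragm minus skin and 0.0153 for meninges minus diaphragm), and DESeq2 called diaphragm minus skin (0.0228). Dkk2, which binds Lrp6, had 0.0939, 5.34 and 35.2 CPM in the meninges, 0, 0 and 3.72 CPM in the diaphragm and 0, 1.79 and 0 CPM in the skin. The tissues overlapped.

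**Figure D4:**
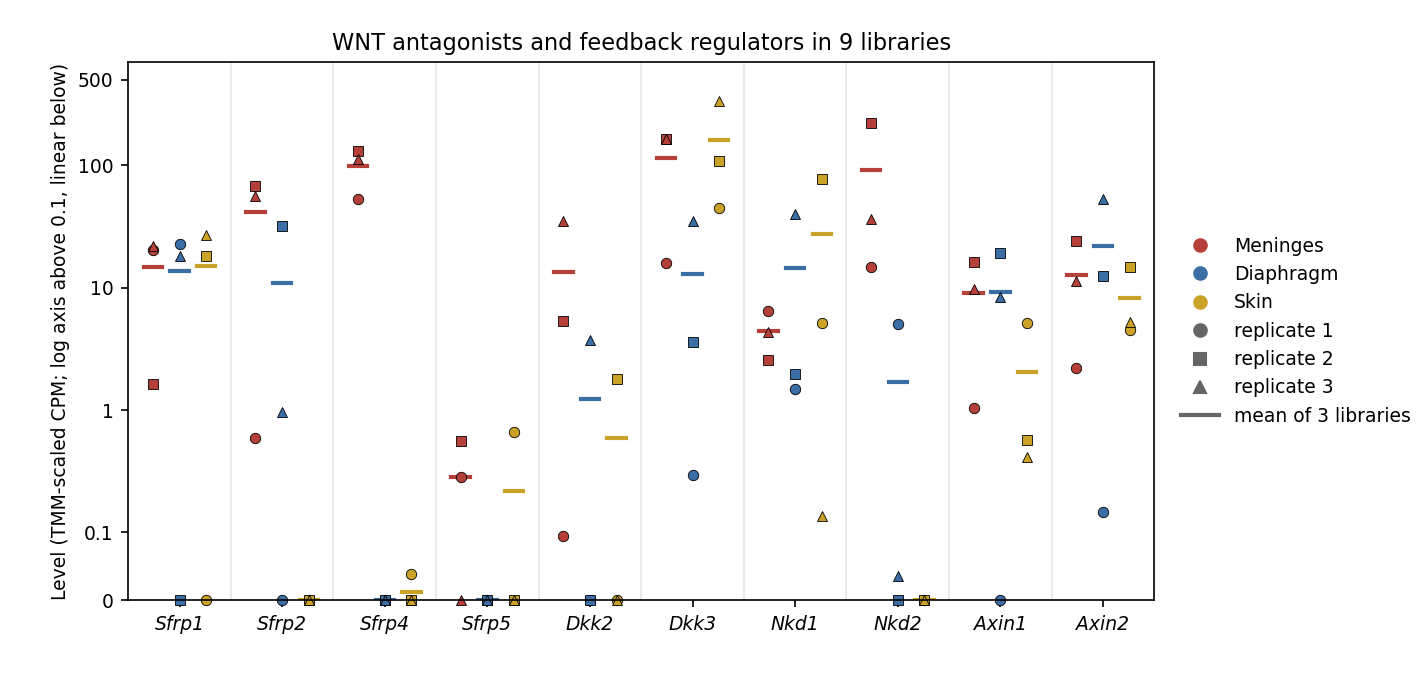
Level of the secreted antagonists and intracellular regulators in each library (CPM, logarithmic above 0.1 and linear below), with tissues, replicates and means drawn as colours, shapes and bars. Sfrp4 and Nkd2 have all 3 meningeal libraries above every diaphragm and skin library.

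Nkd2, an intracellular protein that binds dishevelled, had 14.7, 223 and 36.7 CPM in the meninges, 5.05, 0 and 0.0358 CPM in the diaphragm and 0 in all 3 skin libraries. All meningeal libraries were above all others, and Meninges replicate 2 stood far above the rest. With the same floor over the skin libraries, Nkd2 was at least 11.06 higher in the meninges on the log2 scale (edgeR adjusted p = 0.0484). That call lay close to the threshold and was lost without Meninges replicate 2 (adjusted p = 0.255), Meninges replicate 3 (0.0687), Skin replicate 1 (0.101), Skin replicate 2 (0.0770) or Skin replicate 3 (0.123). Meninges minus diaphragm came to 5.75 ± 2.03 (SE; edgeR adjusted p = 0.355) and was called only without the filter (0.0101) among the settings tried. Nkd1, its paralog and a feedback target of beta-catenin signalling, had 6.42, 2.56 and 4.31 CPM in the meninges, 1.47, 1.97 and 40.2 CPM in the diaphragm and 5.11, 77.4 and 0.137 CPM in the skin, with overlap throughout.

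Axin2, a scaffold of the beta-catenin destruction complex and a widely used readout of the pathway, had 2.22, 24.3 and 11.3 CPM in the meninges, 0.147, 12.5 and 53.3 CPM in the diaphragm and 4.49, 14.8 and 5.26 CPM in the skin. The tissues overlapped and no comparison was called. The interval of the log2 difference ran from -4.19 to 2.59 for meninges minus diaphragm and from -2.76 to 4.003 for meninges minus skin, which leaves room for large differences either way. Axin1 did not exceed 19.3 CPM. Exons of Axin2, Fzd5, Fzd6, Sfrp2, Wnt5a, Wnt7b and Wnt11 overlap an antisense gene, and reads of the 2 cannot be told apart without a stated strand setting.

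The 3 meningeal libraries differed among themselves in many of these genes. Relative to Meninges replicate 1, replicates 2 and 3 had 2.47 and 2.11 times as much Sfrp4, 2.96 and 2.02 times as much Fzd7, 8.86 and 5.39 times as much Fzd1, 10.3 and 10.4 times as much Dkk3, 15.1 and 2.49 times as much Nkd2 and 115 and 94.6 times as much Sfrp2. Over the same libraries the fibroblast marker sum was 5.66 and 5.53 times that of replicate 1. The bone and cartilage sum was 5.41 and 3.68 times and the mural cell sum 2.08 and 2.52 times. The lymphatic marker sum was 0.419 and 0.724 times. The part of these cells in the Fzd7, Fzd1, Nkd2, Sfrp2 and Dkk3 values was not tested. Fzd4 at 1.12 and 0.693 times and Fzd6 at 0.768 and 0.741 times differed less, and Nkd1 was at 0.399 and 0.671 times. When Meninges replicate 1 stood alone for the meninges, Fzd7 was still called against the skin (edgeR adjusted p = 0.0228) and Nkd2 was not (0.796), although that library had 14.7 CPM of Nkd2, against 0 in every skin library.

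**Figure D5:**
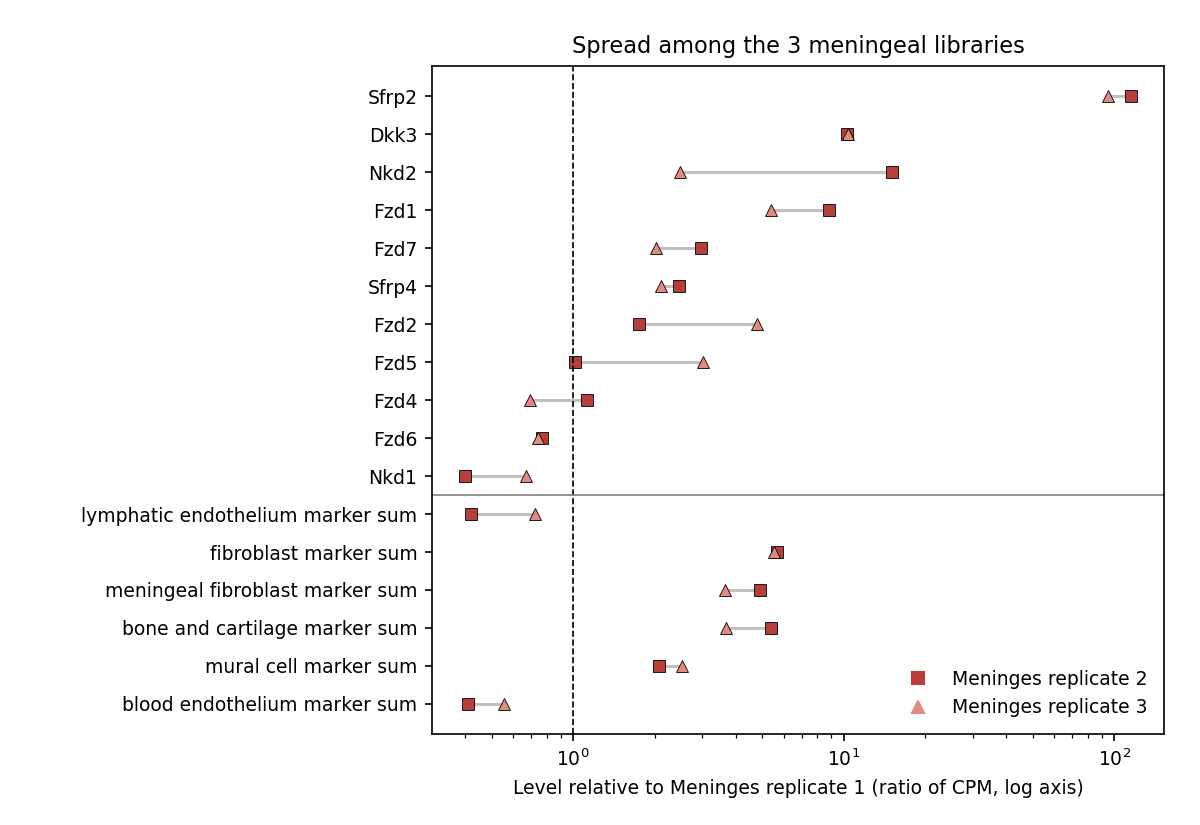
Level of 11 WNT genes and 6 marker sums in Meninges replicates 2 and 3 relative to replicate 1 (ratio of CPM, log axis; the dashed line is equality). Fzd4 and Fzd6 lie near the line, whereas Sfrp2, Dkk3, Nkd2 and Fzd1 lie to its right with the fibroblast and bone marker sums.

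Of 68 other WNT pathway genes listed, 65 were in the table and 55 were tested. Sox17, an endothelial transcription factor regulated by WNT signalling, was the only 1 of the 55 called between meninges and skin. In that comparison 1.32% of all genes tested were called. No gene of the list was called for meninges against diaphragm (0.344% of all genes) or diaphragm against skin (0.0405%). By edgeR unadjusted p under 0.05, 10 of the 55 passed for meninges against diaphragm, 6 for meninges against skin and 11 for diaphragm against skin. Of all 14831 genes tested, 1493, 2052 and 1749 did so in those 3 comparisons. Sox17 had 30.0, 27.1 and 51.6 CPM in the meninges, 0.147, 7.39 and 2.76 CPM in the diaphragm and 0 in all 3 skin libraries. With no skin counts, Sox17 could only come out higher in the meninges than in the skin. It was at least 9.81 higher in the meninges than the skin on the log2 scale, by the same floor (edgeR adjusted p = 0.0283). Leaving out any meningeal or skin library ended that call, with adjusted p from 0.0514 to 0.132. Sox17 is also among the 8 blood endothelial markers, whose sum was 2756, 1128 and 1527 CPM in the meninges, against 797 to 1602 CPM in the diaphragm and 655 to 757 CPM in the skin; the part of those cells was not tested.

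The co-receptor Lrp6 had 326, 718 and 679 CPM in the meninges, 241, 375 and 272 CPM in the diaphragm and 146, 252 and 325 CPM in the skin. The meningeal libraries lay above the skin and overlapped the diaphragm, and meninges minus skin came to 1.25 ± 0.40 on the log2 scale (SE; edgeR adjusted p = 0.184). Rspo3, a secreted amplifier of WNT signalling, had 82.0, 79.1 and 111 CPM in the meninges, 6.60, 4.17 and 38.9 CPM in the diaphragm and 59.4, 12.7 and 25.7 CPM in the skin. All meningeal libraries were above both other tissues without a call (edgeR adjusted p = 0.374 against the diaphragm and 0.537 against the skin). Beta-catenin itself, Ctnnb1, averaged 457 ± 50.1 CPM in the meninges, 499 ± 185 CPM in the diaphragm and 325 ± 64.4 CPM in the skin, and Wls, which carries WNTs to the cell surface, averaged 59.8 ± 9.17 CPM in the meninges, 88.1 ± 48.9 CPM in the diaphragm and 56.3 ± 14.3 CPM in the skin. The destruction complex scaffold Apc averaged 551 ± 173 CPM in the meninges, 613 ± 70.7 CPM in the diaphragm and 873 ± 80.8 CPM in the skin. The antagonist Kremen1, a receptor for Dickkopf proteins, had 157, 56.7 and 90.3 CPM in the meninges, 37.4, 29.0 and 40.3 CPM in the diaphragm and 96.0, 72.1 and 145 CPM in the skin. Every diaphragm library was below the libraries of both other tissues, without a call (edgeR adjusted p = 0.353 for meninges minus diaphragm and 0.339 for diaphragm minus skin). The target gene Ccnd1, a cell cycle cyclin, averaged 20.6 ± 13.5 CPM in the meninges, 94.7 ± 66.3 CPM in the diaphragm and 14.1 ± 15.6 CPM in the skin, again without a call. Myc, another target gene, had 16.7, 11.3 and 26.2 CPM in the meninges. It had 122, 22.0 and 14.7 CPM in the diaphragm and 96.0, 96.4 and 54.5 CPM in the skin. Every meningeal library was below every skin library in Myc, without a call (edgeR adjusted p = 0.254).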

How the data were processed

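RNA of 9 sorted libraries, 3 each from meninges, diaphragm and skin, was, per the labels' protocols, extracted with a PicoPure kit and amplified with a NuGEN Ovation kit. The authors deposited raw counts per gene. The submitters' processing notes name FastQC, STAR, HTSeq and build mm9, with tool versions, annotation and strand setting not given in the sources used here. Deposited counts of 23018 genes were fitted with edgeR 4.0.16 (TMM scaling, filterByExpr, quasi-likelihood test, all 9 libraries in a single fit), with Benjamini-Hochberg adjustment over 14831 genes and a threshold of 0.05. Each SE was worked back from the test, as the absolute log2 difference over the square root of the F statistic. The 95% intervals of log2 differences were built from that SE. The fitting code was also run on simulated counts, and no figure from that run is given here. Exon lengths for CPM per kb came from a GRCm38 annotation. Totals of 26075366 to 34592850 counts limit precision less than the spread between libraries, and counting intervals (95%) and floors (3 counts) cover counting error only. The gene set, pathway and marker lists were chosen with earlier results of these data known. Genes were described in every library when their mean reached 10 CPM in a tissue or they were called; up to 2 genes per role of the pathway list with the highest levels, and each called gene, were eligible to be named. Alternatives were DESeq2 1.42.0 (size factors and Wald test), other filters, fits of 2 tissues, a replicate block, Meninges replicate 1 alone, and each library left out.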

Additional observations from a re-analysis of the deposited data

How the results depend on the processing

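The 9 libraries limit precision more than depth does. The counts below are of WNT genes, then of all genes, called for meninges against diaphragm, meninges against skin and diaphragm against skin. Without a filter they were 4, 5 and 5 WNT genes and 298, 610 and 305 genes; by the DESeq2 Wald test, 3, 7 and 4 WNT genes and 631, 1112 and 815 genes. A filter of 50 counts in 3 libraries gave 13 genes for diaphragm against skin. Fitting only the 2 tissues compared gave 2 WNT genes and 108 genes for meninges against diaphragm, and 1 gene for diaphragm against skin. Meninges replicate 1 as the only meningeal library gave 0 and 1 WNT genes and 11 and 58 genes in the 2 meningeal comparisons, with that library assumed to vary like the other groups. The labels do not say whether replicate numbers mark shared animals. Deviations from the tissue mean correlated at -0.02 to 0.05 between same-numbered libraries. Between differently numbered libraries of different tissues they correlated at -0.06 to 0.04. With 3 libraries per tissue, these values cannot show whether libraries were paired. A replicate block gave 2, 5 and 0 WNT genes and 70, 231 and 16 genes, adding calls of Dkk3 against the diaphragm (edgeR adjusted p = 0.0476) and of Fzd1 (0.0379) and Sfrp2 (0.0335) against the skin. Leaving out each library in turn gave 1 to 2, 1 to 4 and 0 to 1 WNT genes, and 19 to 105, 74 to 236 and 2 to 58 genes. Of the 18 tested genes described in every library, 13, 8 and 10 lost the sign of their log2 difference under some alternative. Against the diaphragm, meningeal Fzd1 ran from -1.25 to 3.16 and Sfrp2 from -4.20 to 6.38. In that comparison Sfrp4, Fzd2, Fzd6, Nkd2 and Dkk3 kept their sign throughout. Fzd4, not called anywhere, changed sign around 0: for meninges minus skin it was 0.0075 with DESeq2 size factors and by the Wald test, 0.00011 with the replicate block and 0.054 with Meninges replicate 1 alone, and for meninges minus diaphragm 0.029 with that library alone. Leaving out libraries moved Fzd4 between -0.25 and 0.27, between -0.24 and 0.24 and between -0.28 and 0.30 in the 3 comparisons. The cause of these shifts was not tested.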
